A study of Saccharomyces cerevisiae with 5 samples.

Results

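The genes described are the 10 histone genes of the budding yeast Saccharomyces cerevisiae: HTA1, HTA2, HTB1, HTB2, HHT1, HHT2, HHF1 and HHF2 for the core histones, HTZ1 for the H2A variant H2A.Z, and HHO1 for the linker histone. They were chosen by gene symbol, all 10 were measured among 5539 genes, and none was lost to a filter. Each of 5 arrays compared, in 2 channels, cDNA of RNA that came down with zz-tagged Yra1 (channel 1) and with zz-tagged Mex67 (channel 2). The zz tag is a pair of immunoglobulin-binding domains of protein A, by which the protein is precipitated, Mex67 carries most yeast mRNA through the nuclear pore, and Yra1 binds nuclear mRNA and hands it to Mex67. All arrays form 1 group, with no untagged precipitate or input RNA to set beside it, and no strain, growth condition or dye is given in the labels. Whether each array had a culture of its own is not stated, so p-values reflect the spread between hybridisations, which may be technical. They use replicates 2 to 5 unless all 5 arrays are named.

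Histones package DNA into nucleosomes, in which pairs of H2A and H2B and of H3 and H4 form a core that DNA wraps around. Yeast carries each core histone as a pair of gene copies, and the copies lie in divergent pairs: HTA1 beside HTB1, HTA2 beside HTB2, HHT1 beside HHF1, and HHT2 beside HHF2, with 0 protein-coding genes between the members of each pair in RefSeq's R64 gene table. Their transcription peaks with DNA replication, and their mRNAs are intronless, short and, unlike most animal histone mRNAs, polyadenylated. A histone transcript therefore reaches the export machinery without having been spliced. Copies of a histone have coding sequences alike enough that spots of both copies can bind the same cDNA.

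Values are log2 ratios relative to the median of each array, from deposited log10 ratios, averaged over the spots of a gene. The sources used here do not give the numerator channel, so "higher" and "lower" describe the ratio as deposited, without saying which precipitate held more RNA. Replicates 2 to 5 share 1 platform, with 2 adjacent spots for each histone gene (20 spots in all). Replicate 1, on another platform with 1 spot per histone gene, is set beside them. Before centring, the array medians were 0.32, 1.96, -2.81, -1.45 and -1.59 for replicates 1 to 5, and across genes Pearson's r between arrays ran from -0.06 to 0.13, a description in which genes are not independent replicates. The labels number the scan of replicate 2 as 5 and those of the other arrays as 4, and the titles of replicates 3 and 5 share a code that the labels do not explain. The deposited tables hold no intensities, so depth over background is unknown.

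Over replicates 2 to 5 no histone gene passed the test over all genes. By limma with Benjamini-Hochberg adjustment 0 of 10 members and 0 of 5539 genes (0%) were called in either direction, and the members' adjusted p ran from 0.834 to 0.962. At an unadjusted p under 0.05 there were 79 higher genes (1.43%) and 221 lower genes (3.99%), among them 1 lower histone gene, HTA2. The median of the 10 genes lay -0.59 ± 1.10 log2 units from that of all other genes (SD, n = 4), at -2.19 on replicate 2 but -0.26, 0.33 and -0.23 on replicates 3, 4 and 5, and at -0.71 on replicate 1. Without replicate 2 that distance was -0.05, and with the sign of replicate 2 turned it was 0.51. Of the 10 means 7 lay below 0 and 3 above it, beside 2843 and 2696 of all genes. No histone gene had 1 sign on all 4 arrays, where 7.13% of all genes were below 0 and 7.11% above 0 throughout.

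**Figure D1:**
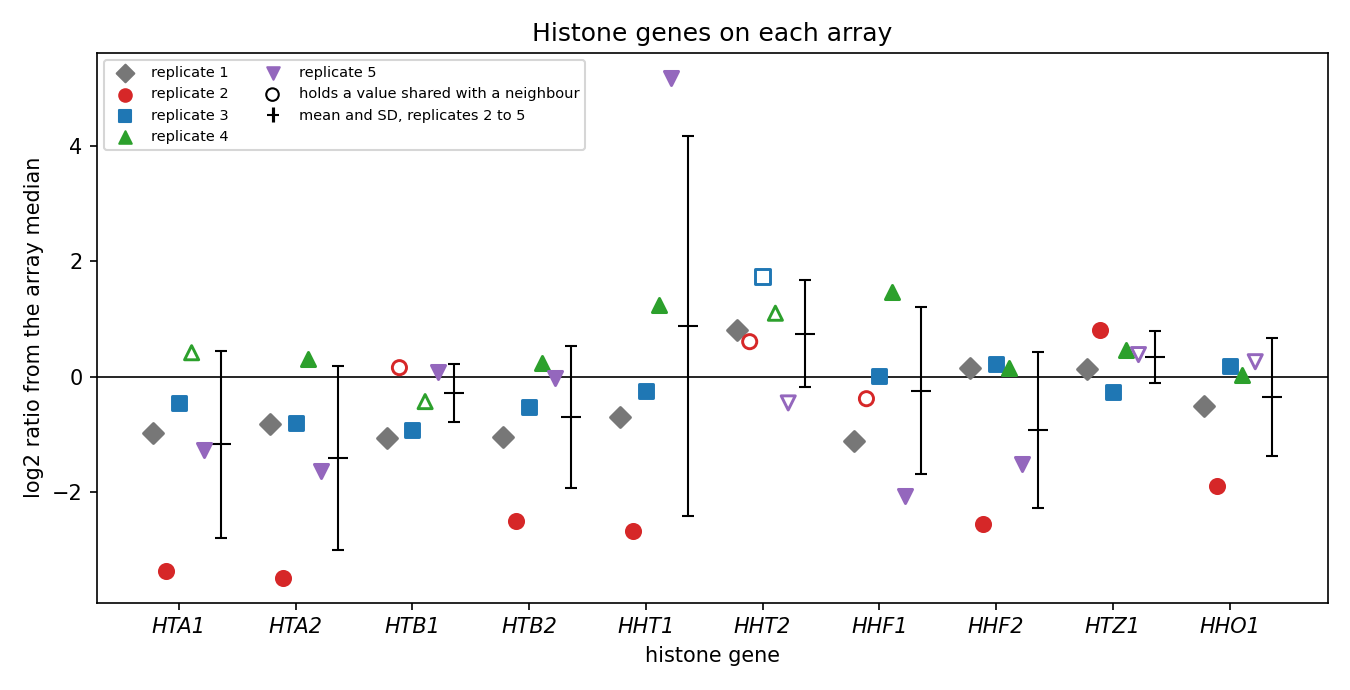
Log2 ratio of each histone gene (vertical axis, relative to the array median) on each of the 5 arrays (markers), with the mean and SD of replicates 2 to 5 beside them. Open markers have a value shared with a neighbouring spot. HTA1 and HTA2 have nearly the same 5 values, while HHT1 spans -2.67 to 5.18.

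The H2A genes had the lowest means of the 10. As centred, they were the only copies whose difference stayed, on each of replicates 2 to 5, inside the limit within which 95% of duplicate spots lay. With the median of the surrounding spots removed that no longer held for H2A, and it held for H2B, as the local values show. HTA1 was at -0.96, -3.36, -0.45, 0.42 and -1.27 on replicates 1 to 5, a mean of -1.17 ± 1.62 over replicates 2 to 5 (SD, n = 4; adjusted p = 0.834 by limma). HTA2 was at -0.82, -3.48, -0.80, 0.30 and -1.62, a mean of -1.40 ± 1.59 (unadjusted p = 0.0496, adjusted p = 0.834 by limma). Both genes were far below the array median on replicate 2, moderately below it on replicates 1, 3 and 5, and above it on replicate 4. On replicate 2 only 92 of the 5539 genes lay below HTA1 and 78 below HTA2, which is 1.66% and 1.41% of genes. On replicate 4 the same genes stood in the upper part of the distribution, with 69.9% and 64.3% of genes below them. One HTA1 spot of replicate 4 held a value shared with a neighbouring gene. Without replicate 2 the means were -0.43 for HTA1 and -0.71 for HTA2, and with its sign turned they were 0.51 and 0.34.

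The H2B genes, which encode the partner of H2A in the nucleosome, did not share that pattern between copies. HTB1 was at -1.06, 0.16, -0.93, -0.43 and 0.08 on replicates 1 to 5 (mean -0.28 ± 0.50 over replicates 2 to 5, SD, n = 4; adjusted p = 0.913 by limma). HTB2 was at -1.03, -2.49, -0.52, 0.25 and -0.02 (mean -0.70 ± 1.24; adjusted p = 0.851). On replicate 1 the 2 copies gave nearly the same value, and on replicate 2 only HTB2 was low. On each of replicates 2 and 4, 1 of the 2 HTB1 spots held a value shared with a neighbouring spot. The other HTB1 spot was at 0.16 and -0.59 on these arrays. Without replicate 2 HTB2 was at -0.10 and HTB1 at -0.42, and without replicate 3 HTB1 was at -0.06.

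Of the H3 genes HHT1 had the largest SD of the 10 and HHT2 one of the smaller ones. HHT1 was at -0.70, -2.67, -0.24, 1.25 and 5.18 on replicates 1 to 5, a mean of 0.88 ± 3.29 over replicates 2 to 5 (SD, n = 4; adjusted p = 0.913 by limma). It was thus among the lowest 5.04% of genes on replicate 2 and above 99.5% of genes on replicate 5, and its mean was -0.55 without replicate 5 and 2.07 without replicate 2. The value on replicate 5 came from spots at 3.17 and 7.19, the second of which was exceeded by 1 of the 12800 spots of that array. HHT2 was at 0.80, 0.61, 1.74, 1.10 and -0.45, a mean of 0.75 ± 0.92 (adjusted p = 0.839), with replicate 5 as the low one, and of 1.15 without it or 0.42 without replicate 3. On each of replicates 2 to 5 both HHT2 spots held 1 identical deposited value. On replicates 2 and 5 the gene YNL035C close by held it too, and on replicates 3 and 4 only the 2 HHT2 spots did. Outer spots, in the 3 outermost rows or columns at each edge of a printed block, made up 6528 of the 12800 spots. All histone spots but the second ones of HTA1 and HTB1 were among them. Of all outer spots, 15.8% to 73.3% per array held a value identical to that of a neighbouring spot. Such values were taken as shared values that may not be the spot's own ratio, and without them HHT2 had a value on 0 of 4 arrays.

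The H4 genes also differed between copies. HHF1 was at -1.12, -0.38, 0.02, 1.47 and -2.06 on replicates 1 to 5, a mean of -0.24 ± 1.45 over replicates 2 to 5 (SD, n = 4; adjusted p = 0.962 by limma). HHF2 was at 0.16, -2.54, 0.22, 0.16 and -1.51, a mean of -0.92 ± 1.35 (adjusted p = 0.839). Both were low on replicate 5, but on replicate 2 only HHF2 was, and the HHF1 spots there held a value shared with the neighbouring gene PCL2. Duplicate spots disagreed for HHF1 on replicate 4 (0.32 and 2.62) and for HHF2 on replicate 5 (-0.01 and -3.02). Differences of that size between duplicate spots were rare, with 98.7% of genes closer on each of these arrays. The mean of HHF1 was 0.37 without replicate 5 and -0.80 without replicate 4, and that of HHF2 was -0.38 without replicate 2.

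HTZ1, whose product replaces H2A in nucleosomes near promoters, did not follow HTA1 and HTA2. It was at 0.14, 0.81, -0.26, 0.46 and 0.39 on replicates 1 to 5, a mean of 0.35 ± 0.45 over replicates 2 to 5 (SD, n = 4; adjusted p = 0.881 by limma). Its SD was the smallest of the 10 genes, below the 0.77 that was the median SD of a gene over these arrays. Its mean was 0.19 without replicate 2 and 0.55 without replicate 3. HHO1, the linker histone gene, was at -0.50, -1.89, 0.19, 0.03 and 0.26, a mean of -0.35 ± 1.03 (adjusted p = 0.916). HHO1 lay low on replicate 2, and its mean without that array was 0.16. On replicates 3 to 5 its averages lay close to the array median, but its duplicate spots disagreed. These spots were at 0.63 and -0.25, at -0.59 and 0.65, and at 0.59 and -0.06. On replicate 5 the spots of both genes held a value shared with a neighbouring gene.

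On single arrays the share of histone genes past 2-fold lay above that of all genes on the low side of replicates 1, 2 and 5. It also did on the high side of replicate 4, and the shares were about level on the high side of replicates 3 and 5. At a log2 ratio of -1 or lower there were 6 of 10 histone genes on replicate 2, where 25.0% of all genes lay that low. The counts were 3 on replicate 1 (14.6% of all genes), 0 on replicate 3 (8.63%), 0 on replicate 4 (11.2%) and 4 on replicate 5 (14.7%). At 1 or higher there were 0 on replicates 1 (4.68%) and 2 (13.4%), 1 on replicate 3 (9.42%), 3 on replicate 4 (10.1%) and 1 on replicate 5 (10.1%). The 3 high genes of replicate 4 were the H3 and H4 genes HHT1, HHT2 and HHF1. With the median of the surrounding spots removed they were at 0.34, 0.095 and 2.27 on that array. No H2A or H2B gene was past 2-fold on the high side of any array. As 4.68 to 13.4% of all genes were per array, 0 of these 4 genes lies near the share of all genes.

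**Figure D2:**
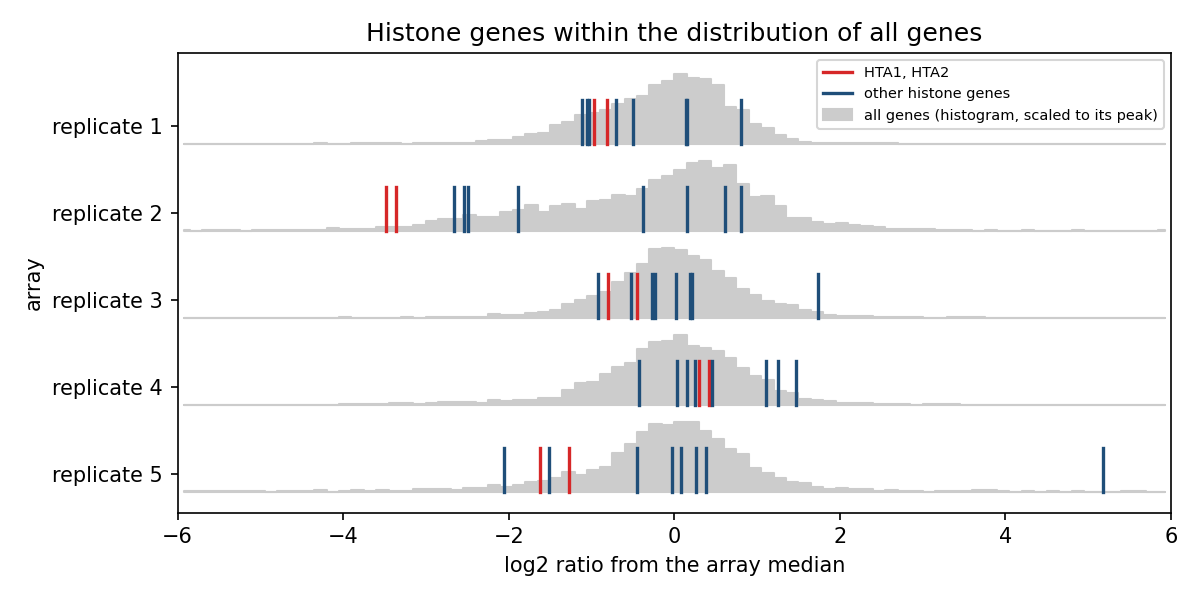
Histogram of all genes on each array (grey, scaled to its own peak) with the histone genes as vertical lines, HTA1 and HTA2 in red; the horizontal axis is the log2 ratio relative to the array median. On replicate 2 the red lines lie at -3.36 and -3.48, in the lower tail, and on replicate 4 at 0.42 and 0.30.

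The 2 copies of each core histone were then compared within each array, beside the difference between the duplicate spots of a gene on the same array. The median difference between duplicate spots, without sign, was 0.26, 0.23, 0.32 and 0.18 log2 units on replicates 2 to 5, and 95% of 5510 genes with 2 spots differed by less than 1.35, 1.03, 1.30 and 0.99. HTA1 minus HTA2 was -0.15, 0.12, 0.35, 0.12 and 0.35 on replicates 1 to 5. The H2A copies, printed in different blocks of the array, thus differed by no more than duplicate spots often did: 30.7, 65.2, 23.1 and 72.8% of genes had duplicate spots closer than that on replicates 2 to 5. Their mean difference was 0.23 ± 0.14 over replicates 2 to 5 (SD, n = 4; exact two-sided sign-flip p = 0.125, the smallest that 4 arrays can give), higher for HTA1 on 4 of 4 arrays. On replicate 1 HTA1 was the lower copy.

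The other copies parted on at least 1 array. HTB1 minus HTB2 was -0.02, 2.65, -0.41, -0.67 and 0.11 on replicates 1 to 5, so that only the difference on replicate 2 exceeded that of 95% of duplicate spots. HHF1 minus HHF2 was -1.28, 2.17, -0.20, 1.31 and -0.54, beyond that level on replicates 2 and 4. HHT1 minus HHT2 was -1.50, -3.28, -1.98, 0.15 and 5.63, beyond it on replicates 2, 3 and 5, where the HHT2 value was a shared one. Over replicates 2 to 5 the mean differences were 0.42 ± 1.52 for H2B, 0.13 ± 3.93 for H3 and 0.68 ± 1.27 for H4 (SD, n = 4). The exact two-sided sign-flip p was 0.875, 0.875 and 0.5 in that order, none of which shows that the copies were recovered alike. The adjacent duplicate spots used as the measure share their place on the array, while the copies lie in different blocks.

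With the median of the surrounding spots removed, the pairs of copies changed places. HTB1 minus HTB2 was then 0.03, -0.94, -0.25 and -0.64 on replicates 2 to 5, inside the 1.30, 1.03, 1.29 and 1.03 within which 95% of duplicate spots lay on that measure. HTA1 minus HTA2 was -3.16, -0.37, 0.02 and 0.55, and so beyond it on replicate 2. HHF1 minus HHF2 was -0.12 on replicate 2 and 2.75 on replicate 4, and HHT1 minus HHT2 was -0.32 and -0.17 on replicates 2 and 3 but 3.80 on replicate 5. Which pair of copies lay close thus depended on that step. Only the H3 copies, on replicate 5, and the H4 copies, on replicate 4, parted beyond 95% of duplicate spots under both. Duplicate spots disagreed on those arrays. With that median removed, the HHT1 spots were at 1.61 and 5.94 on replicate 5, where the HHT2 values were shared ones. The HHF1 spots were at 0.99 and 3.54 on replicate 4.

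Genes that share a divergent promoter region also parted on some arrays. HTA1 minus HTB1 was 0.09, -3.52, 0.47, 0.85 and -1.35 on replicates 1 to 5, and HTA2 minus HTB2 was 0.22, -0.99, -0.29, 0.06 and -1.60. On replicate 5, as centred, both H2A genes were lower than the H2B gene beside them by more than 95% of duplicate spots differed. With the median of the surrounding spots removed that held for HTA2 minus HTB2 (-2.05) only. HTA1 minus HTB1 was then -0.86, inside the limit of 1.03 on that measure. HHT1 minus HHF1 was 0.42, -2.29, -0.26, -0.22 and 7.24, spread mainly by replicates 2 and 5. HHT2 minus HHF2 was 0.65, 3.15, 1.52, 0.95 and 1.06, above 0 on 5 of 5 arrays, with a mean of 1.67 ± 1.02 over replicates 2 to 5 (SD, n = 4). Its exact two-sided sign-flip p was 0.125 over 4 arrays and 0.0625 over 5, in each case the smallest possible, and 0.5 after adjustment over the 8 pairs compared. With the median of the surrounding spots removed it was 0.85 ± 0.66, and 0.08 on replicate 2. That difference rests on the shared values of HHT2 on 4 of the 5 arrays.

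**Figure D3:**
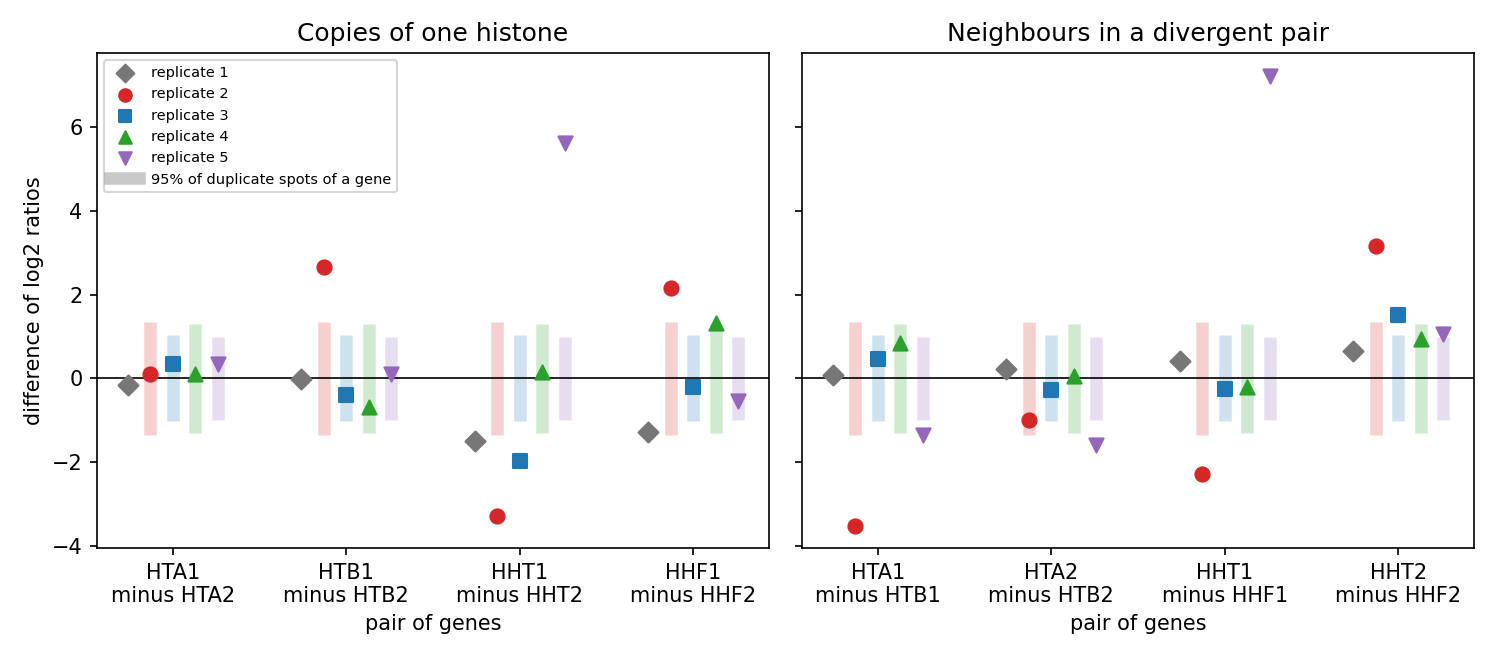
Difference of log2 ratios between the copies of each core histone (left) and between neighbours of a divergent pair (right) on each array. Shaded bars span the difference within which 95% of duplicate spots of a gene lay on replicates 2 to 5. The points of HTA1 minus HTA2 lie between -0.15 and 0.35, inside the bars before any removal of the local median, and HHT1 minus HHF1 reaches 7.24 on replicate 5.

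Low values of histone genes on replicate 2 were matched by those of the surrounding spots for all but HTA1. The local median, taken over a window of 5 by 5 spots in the block without the gene's own spots, was -2.56 around HTA2, -2.42 around HTB2, -2.39 around HHT1, -2.50 around HHF2 and -1.18 around HHO1. Around HTA1 it was 0.72. Relative to the spots around them on that array, HTB2 was at -0.07, HHF2 at -0.04, HHT1 at -0.28, HHO1 at -0.70 and HTA2 at -0.92. HTA1 was at -4.08, lower than all but 0.343% of genes on the same measure. With the local median removed, 1 histone gene stayed at -1 or lower on replicate 2 (7.64% of all genes) and 0 were at 1 or higher (3.61%), while HTA1 minus HTA2 went from 0.12 to -3.16. The median of the 10 genes was then -0.12 on that array, against -2.19 before. The part of array position in the values was not tested.

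On replicate 5 the low values differed from those of the spots around them. HTA1 was at -0.88 relative to its local median, HTA2 at -1.43, HHF1 at -1.89 and HHF2 at -1.59. Thus 3 of 10 histone genes stayed at -1 or lower (8.03% of all genes). The HHF2 spots disagreed, at -0.07 and -3.12, so its place in that count came from 1 spot. HHT1 was at 3.77 on that array, from spots at 1.61 and 5.94, with 1 of 10 at 1 or higher (3.81%). On replicate 4 HHF1 was at 2.27 relative to its surroundings (1 of 10 at 1 or higher, against 3.85%), though its duplicate spots disagreed, and 0 were at -1 or lower (5.20%). On replicate 3 no histone gene was past 1 in either direction (5.54% of all genes lower and 3.20% higher), and HHT2 went from 1.74 to 0.25. Over replicates 2 to 5 the means with the local median removed were -1.30 ± 1.89 for HTA1, -0.56 ± 0.74 for HTA2, 0.14 ± 0.34 for HTB2, 0.09 ± 0.12 for HHT2 and -0.77 ± 0.67 for HHF2 (SD, n = 4). The HHT2 values were shared ones, on replicates 2 and 5 with YNL035C inside the window. Removing the local median can bring such a value to 0, and 1 HHT2 spot was at 0 on both arrays. The small mean and SD of HHT2 may thus not describe its own ratio.

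**Figure D4:**
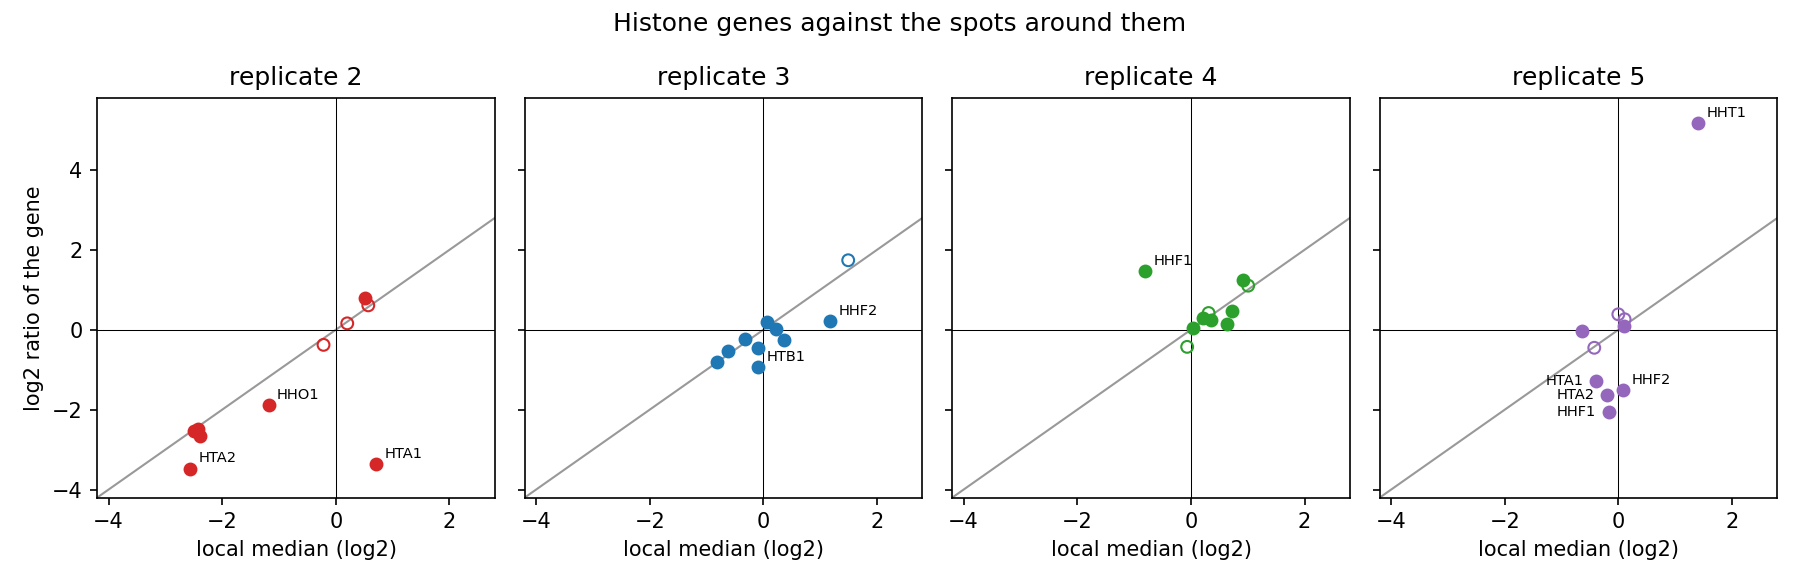
Log2 ratio of each histone gene (vertical axis) against the median of the spots around it (horizontal axis, log2) on replicates 2 to 5. The grey line marks equal values, and open circles have a value shared with a neighbouring spot. Genes at least 0.7 log2 units from the line are named. On replicate 2 HTA1 stands alone, at -3.36 where its surroundings are at 0.72.

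The genes that regulate, carry and deposit histones gave no call of their own: limma called 0 of 41 measured genes at an adjusted p under 0.05, with 3 lower at an unadjusted one, where 3.99% of all genes were. Of 12 regulators of histone genes 4 had a mean below 0 and 8 above it, with 0 at an unadjusted p under 0.05 and a median of means of 0.07, beside -0.02 for all genes. SPT10, whose product activates histone promoters, was at -0.34 ± 0.51 (SD, n = 4), with a shared value on 3 arrays, and its partner gene SPT21 was at 0.01 ± 0.71. HIR1, a subunit gene of the HIR corepressor, was at -0.17 ± 1.62 and the H3-H4 chaperone gene ASF1 at 0.54 ± 0.54. ASF1 was above 0 on 5 of 5 arrays, as 3.29% of all genes were, and the other 3 were not of 1 sign.

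Of 10 chaperone genes 8 had a mean below 0 and 2 above it, with 0 at an unadjusted p under 0.05 and a median of -0.29. NAP1, an H2A-H2B chaperone gene, was at -0.54 ± 0.88 (SD, n = 4), and the FACT subunit genes SPT16 and POB3 were at -0.23 ± 1.27 and -0.49 ± 0.97. All 3 were low on replicate 2, at -1.80, -1.75 and -1.49. Of 12 genes for the deposition of H2A.Z 4 had a mean below 0 and 8 above it, with 2 lower at an unadjusted p under 0.05 (3.99% of all genes) and a median of 0.16. These were SWR1, the remodeller's ATPase gene, at -1.17 ± 1.00 and below 0 on 5 of 5 arrays (3.32% of all genes), and SWC3, named after its values were seen, at -1.76 ± 1.22. HTZ1 itself, whose product this complex deposits, was at 0.35.

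Of 4 genes for the decay of histone mRNA 3 had a mean below 0 and 1 above it, with a median of -0.37. LSM1, a decapping activator gene, was at -0.27 ± 0.31 (SD, n = 4), with a shared value on 3 arrays, and RRP6, a nuclear exosome nuclease gene, at -0.48 ± 0.36. PAP2, a noncanonical poly(A) polymerase gene named after its values were seen, was at -1.72 ± 1.33, the 1 lower gene of the list at an unadjusted p under 0.05 (3.99% of all genes). CSE4, which encodes the H3 variant of centromeres, was at 0.73 ± 0.92, with 0.16, 0.20, 0.11, 0.54 and 2.09 on replicates 1 to 5. It was above 0 on 5 of 5 arrays, as 3.29% of all genes were, and furthest above it on replicate 5. HHT2 was above 0 on all arrays but replicate 5, and HHT1 on replicates 4 and 5. Of the 3 genes of the centromeric list 1 had a mean below 0 and 2 above it, with a median of 0.18.

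The 132 cytosolic ribosomal protein genes, which also give short and abundant mRNAs, were set beside the histone genes on each array. Their median lay 0.08, -0.08, -0.28, -0.36 and -0.93 log2 units from that of all genes outside the histone list on replicates 1 to 5. The histone genes were lower than them on replicates 1 and 2, at -0.71 and -2.19, about level on replicate 3, at -0.26, and higher on replicates 4 and 5, at 0.33 and -0.23. No test of that difference was run, because the members were chosen with results known.

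Among 5529 other genes, the 5 whose values on replicates 2 to 5 lay closest to the median of the 8 core histone genes (-2.52, -0.35, 0.36 and -0.86) were RPS17A, PRP5, GEP5, GPX1 and PHO23. Their root mean square difference from that profile ran from 0.12 for RPS17A, a ribosomal protein gene, to 0.21 for PHO23, against a median of 1.54 over all other genes. The histone genes themselves ran from 0.43 for HTB2 to 3.05 for HHT1, so the profile stood for HTA1, HTB2 and HHF2 better than for HHT1, HHT2 and HTB1. On replicate 1, which was not used for the choice, the core histone median was -0.89 and these 5 genes were at 1.18, 0.67, -0.43, -0.07 and -0.07. None of the 5 was as low there as the core median.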

How the data were processed

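The data were 5 arrays in 2 value tables, 4 of them on 1 platform. Each deposited value is the log10 ratio of a spot. The base was worked out from the values: raised to base 10, 2.15 to 18.75% of 2000 drawn spots per array were ratios of whole numbers up to 3000, against at most 0.55% with base 2 or e. Background correction, normalization and build were not given in the sources used here, so no coordinates are printed. Ratios were converted to log2, centred on each array's median and averaged over a gene's spots. Genes were named through the platform annotation, updated by RefSeq (R64, 5534 of 5539 genes matched).

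Replicates 2 to 5 were tested against 0 with lmFit and eBayes of limma 3.58.1 in R 4.3.3, two-sided, with at least 3 arrays per gene. Benjamini-Hochberg adjustment ran over all genes, with a threshold of 0.05. On simulated data, with genes shuffled within arrays, the test recovered 0.4% of changes of 1 log2 unit and 39.3% of changes of 2. It recovered 78.9% of changes of 3 and 95.1% of changes of 4, so most 2-fold changes would be missed. Pair differences had exact sign-flip tests (Python 3.11.15). Members, lists and alternatives were chosen with earlier results of these data known. The text names all 10 members, 11 fixed genes of the lists and the 5 genes nearest the core median, and beside these SWC3 and PAP2, chosen after their values were seen. Alternatives changed centring, position, scaling, spots, platform, sign, moderation, filter, slide and the title code shared by replicates 3 and 5, and left out each array.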

Additional observations from a re-analysis of the deposited data

Results flagged for a closer look

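HHO1, the linker histone gene, was at -1.89 on replicate 2, far from its values of 0.19, 0.03 and 0.26 on replicates 3 to 5. The gap to the nearest of the others was 0.893 of the whole range, above Dixon's 95% critical value for 4 samples. It was the 1 result past that value among 19 tested (10 genes, their common shift and 8 pair differences), and chance alone gives about 1 in 20. The HHO1 spots were at 0.63 and -0.25 on replicate 3 and at -0.59 and 0.65 on replicate 4. On replicate 5 they were at 0.59 and -0.06. The close values on these arrays are thus averages of spots that disagreed, and the gap was not computed for single spots. On replicate 2 the HHO1 spots were at -1.87 and -1.91. The spots around HHO1 had a median of -1.18 on that array, and relative to them HHO1 was at -0.70. The part of array position in this value was not tested.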

How the results depend on the processing

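No paired analysis was possible because all arrays form 1 group. The counts of genes called by limma were 0 higher and 0 lower under every alternative run, with 0 to 407 higher and 127 to 713 lower genes at an unadjusted p under 0.05. Every histone gene's adjusted p by limma lay between 0.137 and 0.998. The 407, the 713 and the 0.137 came from the random block for the slide number, whose estimated correlation was negative, at -0.27. The titles give slide 2 under different codes, so that number may not name 1 slide. The common shift of the histone genes (-0.59) ran from -0.89 to -0.053 without 1 array in turn. It was 0.51 with replicate 2 turned, -0.89 without spots that hold a shared outer value and -0.052 with the local median removed. With replicate 2 turned, means changed sign for HTA1 (0.51), HTA2 (0.34), HTB2 (0.55), HHF2 (0.35), HTZ1 (-0.057) and HHO1 (0.59), as did HTB1 minus HTB2 (-0.91) and HHF1 minus HHF2 (-0.40). With the local median removed they did for HTB2 (0.14), HHF1 (0.0069), HTZ1 (-0.051), HTA1 minus HTA2 (-0.74) and HTB1 minus HTB2 (-0.45). Without centring every mean moved by -0.97, to -0.091 for HHT1, -0.22 for HHT2 and -0.63 for HTZ1. The first spots alone gave -0.48 for HHT1 minus HHT2 and -0.12 for HHF1 minus HHF2, and adding replicate 1 gave -0.20 for the former. Averaging replicates 3 and 5, chosen after seeing the data, gave 0.024 for HHF1. Without 1 array in turn, the means ran from -0.55 to 2.07 for HHT1, -0.80 to 0.37 for HHF1 and -0.55 to 0.16 for HHO1. The differences ran from 0.19 to 0.27 for H2A, -0.33 to 0.78 for H2B, -1.70 to 1.27 for H3 and 0.19 to 1.09 for H4. HTB1 kept its sign in all of these but ran from -0.42 to -0.062 without 1 array, HHF2 from -1.30 to -0.38, HHT2 from 0.42 to 1.15 and HTZ1 from 0.19 to 0.55. The cause of these changes was not tested. A random block for the unexplained title code of replicates 3 and 5 could not be estimated with 4 arrays, HHT2 had no value once shared values were left out, and filters on dim spots were not run because no intensities were used here. The number of arrays limits precision.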
